A study of Mus musculus with 6 samples.

Results

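The IGF system was described in the single-cell data through 9 genes, named by symbol and found by that symbol in the deposited count table of 20822 genes. They are the ligands Igf1 and Igf2, the receptors Igf1r and Insr, and the binding proteins Igfbp2, Igfbp3, Igfbp4, Igfbp5 and Igfbp7. The study asked how loss of the endothelial nitric oxide synthase eNOS, encoded by Nos3, changes expression in endothelial cells (ECs) of the retina during oxygen-induced retinopathy (OIR). Transcripts were counted by Drop-seq, a droplet method that reads the 3' end of mRNA and counts each molecule once by its unique molecular identifier (UMI), in retinal suspensions enriched with beads against CD31, an EC surface protein. Both groups were P14 mouse pups kept in raised oxygen and then returned to room air. The group eNOS+/+ was C57BL/6 mice by the labels and C57BL/6J by the study's methods, and the group eNOS-/- was mice homozygous for a knockout allele of Nos3, backcrossed to C57BL/6J. Each group had 3 replicates, each made from several pooled retinas, so a replicate is a pool and not a single animal. All samples were taken in OIR, and no retinas without OIR were analysed here. The authors' annotation divides 8944 cells (3031 eNOS+/+, 5913 eNOS-/-) into 10 types, namely Tip, Structural and Proliferative ECs, mural cells, immune cells, neuroglia, Optc+ cells, neurons, rods and cones.

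Insulin-like growth factors are secreted peptides that act through the receptor tyrosine kinase IGF1R, and insulin acts through the closely related insulin receptor. Both receptors signal through IRS adaptors to PI3K and AKT, which promote cell growth and survival. Binding proteins of the IGFBP family hold IGFs outside cells, lengthen their lifetime and limit or direct their access to receptors, while Igfbp7 is a related secreted protein of vessel walls with low affinity for IGFs. In the developing retina, IGF-1 is known as a factor that vessel growth in response to VEGF depends on.

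UMIs were summed over the cells of each type in each replicate, and a level is given as CPM, the UMIs of a gene per 1000000 UMIs of that sum. Sums of fewer than 10 cells were left out, which left 50 of the sums, with 5 or 6 for every type but cones, which kept 1. All 9 members had UMIs, from 10 for Igf2 to 39856 for Igfbp7. The cell types were clustered by the authors from the same UMIs, so levels across cell types are descriptions with no test. CPM of a 3' method compares a gene between samples, and levels of different members were not ranked against each other.

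The replicates differed in depth, from 617246 to 3350799 UMIs, and in ECs, from 288 to 2266 cells, with eNOS-/- replicate 3 the smallest in ECs. The median EC had 418 UMIs in eNOS-/- replicate 2 and between 783 and 1098 in the other replicates. The mitochondrial share of EC UMIs ran from 1.42% to 2.73%. Marker lists matched the annotation, with every marker highest in its own type for each list of retinal cell types except neuroglia, where 5 of 6 were, Apoe being highest in immune cells. Of 5 B-cell genes, 3 had their highest level in ECs. The targeted gene Nos3 was not lower throughout in the eNOS-/- libraries. Its EC level was 19.4, 36.6 and 23.6 CPM in the eNOS+/+ replicates and 21.2, 16.1 and 32.8 CPM in the eNOS-/- replicates (log2 fold change -0.29, SE 0.35, edgeR adjusted p = 0.969). A 3' end outside a deleted part can still be transcribed, but whether this holds for this allele was not tested. The Nos3 level thus does not bear out the labels here, and the genotypes are those of the labels. A second column of the deposited annotation gives all 613 cells of eNOS+/+ replicate 2 the name of another eNOS+/+ library, so the genotype is the same by either column, and Igfbp2 and Igfbp7 are also given without that replicate. Across libraries 3 barcodes occur more than once.

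In the plot of levels by cell type the members fell into distinct places. The immune cells had the highest level of Igf1, the Optc+ cells of Igfbp2 and Igfbp4, the neuroglia of Igfbp5, the Tip ECs of Igfbp3, and ECs and mural cells of Igfbp7. Igf1r was highest in photoreceptors, and Insr in Structural ECs. ECs held 79.5% of all UMIs, and against that share they held 98.2% of the UMIs of Igfbp3, 93.2% of Igfbp7, 91.2% of Insr and 90.0% of Igfbp4. They held less than their share of Igf1r (63.4%), Igfbp5 (36.1%), Igf1 (23.3%) and Igfbp2 (3.95%).

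**Figure D1:**
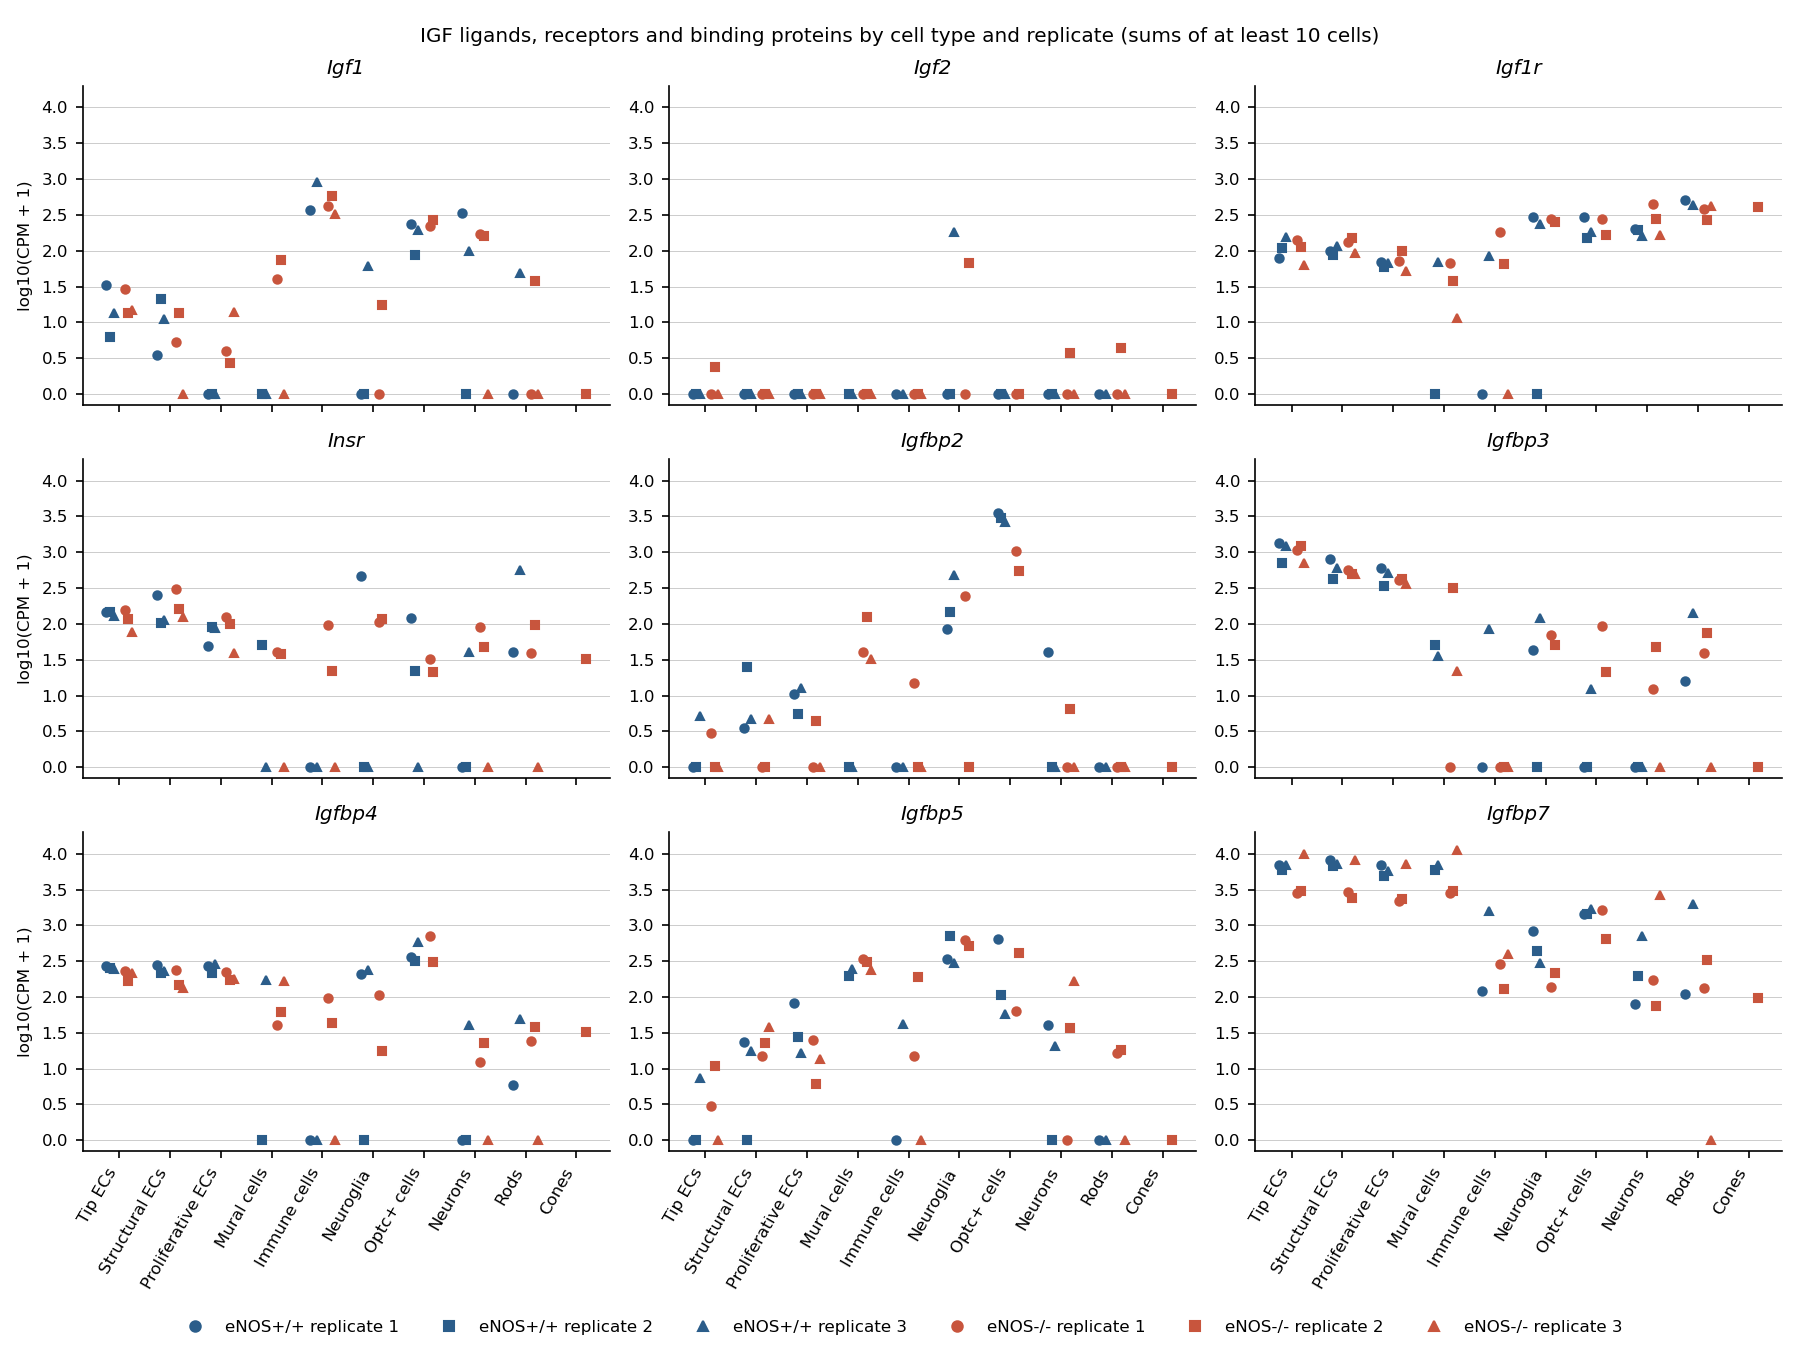
Level of each member as log10(CPM + 1) in the 10 cell types, with 1 point per replicate (sums of at least 10 cells), blue for eNOS+/+ and red for eNOS-/- as in the key. Igfbp3 and Igfbp7 sit high in the 3 EC types, Igfbp2 in Optc+ cells, Igf1 in immune cells and Igfbp5 in neuroglia, and Igf2 has points above 0 in few sums.

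Promoter sequences are shown for the binding proteins that the results turn on, Igfbp3 as the one highest in Tip ECs, Igfbp7 as the one with the most UMIs, and Igfbp2 as the one called between genotypes, in Optc+ cells. Each is the 250 bases before a RefSeq transcript start on build GRCm38.p6, read 5' to 3' on the gene's strand. Capitals mark matches of ACGTG on either strand, a form of the core letters of the site bound by hypoxia-inducible factors. The Igfbp3 window is chr11:7213924-7214173 on the minus strand, and the Igfbp7 window is chr5:77408046-77408295 on the minus strand. The Igfbp2 window is chr1:72824230-72824479 on the plus strand, before the first of 2 listed starts of that gene.
Igfbp3: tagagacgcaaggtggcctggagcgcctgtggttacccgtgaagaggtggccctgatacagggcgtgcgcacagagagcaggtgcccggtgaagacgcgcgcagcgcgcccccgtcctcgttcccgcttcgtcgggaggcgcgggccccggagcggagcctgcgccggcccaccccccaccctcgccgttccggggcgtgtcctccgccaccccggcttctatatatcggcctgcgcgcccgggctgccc
Igfbp7: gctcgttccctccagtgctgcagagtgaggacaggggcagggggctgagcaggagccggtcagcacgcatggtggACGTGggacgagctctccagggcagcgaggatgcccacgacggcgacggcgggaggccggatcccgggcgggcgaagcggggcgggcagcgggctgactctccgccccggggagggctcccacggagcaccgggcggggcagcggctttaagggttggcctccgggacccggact
Igfbp2: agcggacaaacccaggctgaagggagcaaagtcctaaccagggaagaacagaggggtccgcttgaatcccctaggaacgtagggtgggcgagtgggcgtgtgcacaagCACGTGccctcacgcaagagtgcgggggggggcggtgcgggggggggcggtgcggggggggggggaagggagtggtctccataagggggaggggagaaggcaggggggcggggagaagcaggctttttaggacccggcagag

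The letters ACGTG occurred in 5444 of 32851 promoters of this length (16.6%). The windows of Igfbp3 held 0 matches, of Igfbp7 1, and of Igfbp2 2, which overlap in the palindrome CACGTG. Of the 12 windows of the 8 members listed, 3 held the letters, the third being 1 of the 4 starts of Igf2, and Insr had no entry in the table. The 3 windows shown held 32, 26 and 14 CpG dinucleotides for Igfbp3, Igfbp7 and Igfbp2, against a median of 6 over all promoters. A match describes the letters of a window and is not a measured binding site. Other forms of the site were not searched, so 0 matches does not mean that a window lacks it.

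Igf1, the ligand gene at chr10:87858265-87937042 on the plus strand of GRCm38, had its UMIs outside ECs for the larger part. Neurons held 28.8% of its 326 UMIs, immune cells 27.0% and Optc+ cells 13.8%. The level was highest in immune cells (522 ± 238 CPM, SD, n = 5 sums), the class that includes microglia and macrophages. It was 366 and 914 CPM in the 2 eNOS+/+ replicates with enough immune cells, and 427, 574 and 328 CPM in the eNOS-/- replicates. The eNOS-/- values all lay below the upper eNOS+/+ value and on both sides of the lower one. The next level was that of Optc+ cells (199.9 ± 69.8 CPM, n = 5), and the ranges of these types over replicates did not overlap, from 328 CPM upward in immune cells and up to 267 CPM in Optc+ cells. That separation rests on few Igf1 UMIs. The 366 and 328 CPM came from sums of 21 and 29 immune cells with 8207 and 15236 UMIs, of which 9.52% and 13.8% had an Igf1 UMI. Neurons followed with 127 ± 126 CPM (n = 6), from 0 to 336 CPM, and did not separate from Optc+ cells. In all ECs Igf1 had 8.86 ± 1.37 CPM (n = 6), with the Tip ECs above the Proliferative ECs in 6 of 6 replicates and above the Structural ECs in 5 of 6.

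To compare shares of cells at equal depth, each cell was thinned to 500 UMIs, which left out the 4083 cells (45.7%) with fewer. At that depth 16.7% of immune cells (95% Wilson interval 10.9 to 24.6%) had an Igf1 UMI, against 5.10% of neurons (3.33 to 7.75%) and 0.367% of ECs (0.214 to 0.626%). Unthinned, the shares were 21.8%, 9.42% and 1.11%, at median depths of 518, 579 and 682 UMIs per cell. Rods, with 0.238% thinned and 0.729% unthinned at a median of 361 UMIs, are given for comparison, and the part of free RNA in their share was not tested. These intervals cover counting error only.

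Igf2, at chr7:142650766-142666816 on the minus strand, encodes a growth factor best known from fetal tissues. It had 10 UMIs in the whole table, 7 of them in neuroglia. Its neuroglial level was 0, 0 and 179 CPM in the eNOS+/+ replicates and 0 and 66.7 CPM in the eNOS-/- replicates that had neuroglia. It was at 0 in all 6 sums of Structural ECs and of Proliferative ECs, and in 5 of 6 sums of Tip ECs. It passed the filter on low counts in no genotype fit, and the two-sided exact permutation test of its neuroglial CPM gave p = 1.0.

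Igf1r, at chr7:67952827-68233668 on the plus strand, encodes the main receptor for both ligands. Its level was highest in rods (400.8 ± 90.2 CPM, n = 5) and in the single usable sum of cones (412 CPM). Neurons (242 ± 113 CPM, n = 6), Optc+ cells (214 ± 68.9 CPM, n = 5) and neuroglia (212 ± 120 CPM, n = 5) followed. Their ranges overlapped those of rods, and no neighbours in this order were separated. Structural ECs (112 ± 24.6 CPM, n = 6) and Tip ECs (109 ± 35.1 CPM, n = 6) lay above Proliferative ECs (69.1 ± 16.6 CPM, n = 6), and Proliferative ECs were the lowest of the 3 EC types in 6 of 6 replicates. Mural cells had the lowest level (36.5 CPM, n = 5). At 500 UMIs per cell 12.8% of rods (9.97 to 16.4%) had an Igf1r UMI, against 5.08% of ECs (4.40 to 5.85%) and 0.680% of mural cells, although the median rod had only 361 UMIs before thinning.

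Insr, at chr8:3122061-3279617 on the minus strand, encodes the insulin receptor. ECs held 91.2% of its UMIs, and its mean level was highest in Structural ECs (176 ± 84.6 CPM, n = 6), then rods (149 ± 239 CPM, n = 5), neuroglia (136 ± 189 CPM, n = 5) and Tip ECs (128 ± 28.6 CPM, n = 6). The rod and neuroglia means each rested on 1 eNOS+/+ replicate, at 571 CPM in rods and 459.5 CPM in neuroglia, with the other sums at most 95.1 and 117 CPM. Proliferative ECs (80.9 ± 32.1 CPM, n = 6) were again the lowest EC type in 6 of 6 replicates, by 1.20- to 3.05-fold against Tip ECs. Optc+ cells, cones, neurons, mural cells and immune cells had between 23.6 and 38.3 CPM. The share of cells with an Insr UMI at 500 UMIs was 7.41% in Structural ECs (6.24 to 8.77%), 3.09% in rods and 1.79% in neurons.

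Igfbp3, at chr11:7206086-7213923 on the minus strand, encodes the main carrier of IGFs in blood and is known as a hypoxia-responsive gene of vessels. It marked ECs, and among them Tip ECs, the leading cells of sprouts. Tip ECs held 21.6% of all UMIs and 44.0% of the Igfbp3 UMIs. In Tip ECs the level was 1355, 699.8 and 1231 CPM for eNOS+/+ and 1069, 1217 and 701 CPM for eNOS-/-. In Structural ECs it was 809, 417 and 597 CPM in eNOS+/+ and 562, 494 and 493 CPM in eNOS-/-. In Proliferative ECs it was 604, 333 and 521 CPM in eNOS+/+ and 411, 416 and 358 CPM in eNOS-/-. The genotypes overlapped in all 3 types, while the order of the types was the same in 6 of 6 replicates. Tip ECs lay 1.42- to 2.47-fold above Structural ECs, and Structural ECs 1.15- to 1.38-fold above Proliferative ECs of the same replicate. The next type, mural cells, had 84.8 ± 132 CPM (n = 5), and its range did not reach that of Proliferative ECs.

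At 500 UMIs per cell 30.0% of Tip ECs (27.3 to 32.8%) had an Igfbp3 UMI, against 13.8% of Structural ECs and 15.5% of Proliferative ECs. Rods and neurons had 1.66% and 1.02%. The median depth was 1007 UMIs in Tip ECs and 491 in Structural ECs, so these shares were read only after thinning.

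Igfbp7, at chr5:77349240-77408041 on the minus strand, was the member with the most UMIs and ranked 7 among all genes by its mean EC level. It lies 53.0 Mb from Nos3 on the same chromosome. Its mean level was nearly equal in Tip ECs (5960 ± 2651 CPM, n = 6), mural cells (5952 ± 3416 CPM, n = 5) and Structural ECs (5907 ± 2573 CPM, n = 6), with Proliferative ECs at 4851 ± 2178 CPM (n = 6). The ranges of these types overlapped, but Proliferative ECs were lowest of the 3 EC types in 6 of 6 replicates. Optc+ cells had 1370 ± 427 CPM (n = 5), below all 6 sums of each EC type. At 500 UMIs per cell 89.8% of mural cells (83.8 to 93.7%), 81.1% of Tip ECs, 76.4% of Structural ECs and 73.9% of Proliferative ECs had an Igfbp7 UMI, against 9.98% of rods, 6.38% of neurons and 6.06% of cones. Unthinned, the rods had 7.29% and all ECs 72.3%.

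Within ECs the spread of Igfbp7 between replicates was wide and followed 1 library. In all ECs it was 7552, 5888 and 6845 CPM for eNOS+/+ and 2697, 2581 and 8432 CPM for eNOS-/-. The first and second eNOS-/- replicates lay below every eNOS+/+ replicate and the third lay above every one. In mural cells it was 5906 and 6871 CPM in eNOS+/+ and 2794, 3017 and 11172 CPM in eNOS-/-, which is the same arrangement. Tip and Proliferative ECs showed it too, and in Structural ECs eNOS-/- replicate 3 lay just below the highest eNOS+/+ value, 8160.0 CPM. In Tip ECs eNOS-/- replicate 3 reached 9790 CPM against 2846 and 3053 CPM in the other eNOS-/- replicates. For Structural ECs the corresponding values were 8072 against 2938 and 2393 CPM, and for Proliferative ECs 7187 against 2172 and 2366 CPM.

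**Figure D2:**
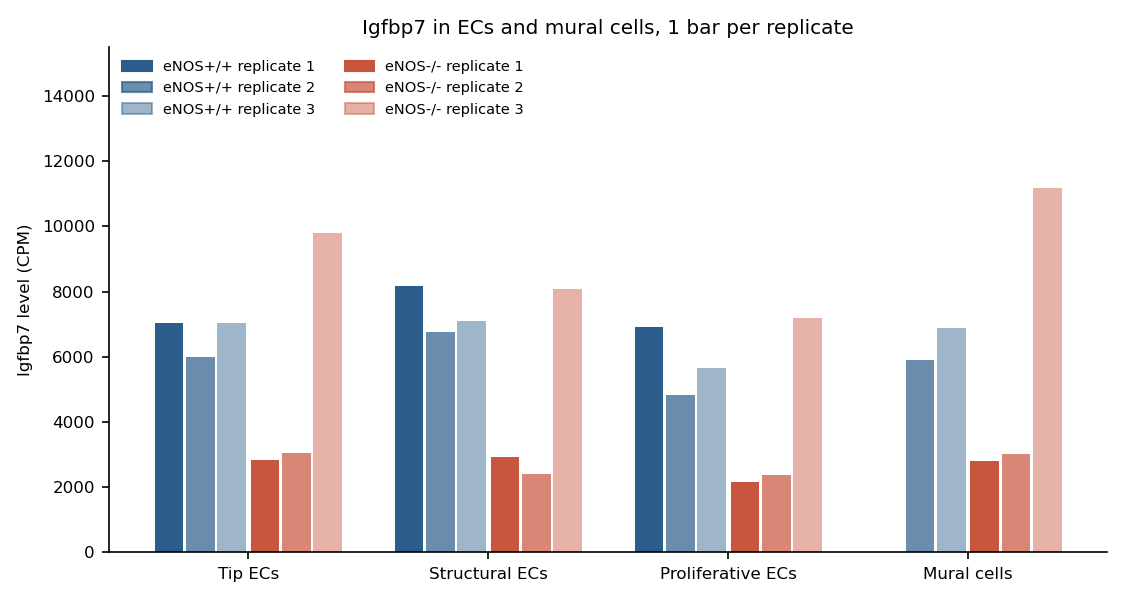
Igfbp7 level in CPM (linear axis from 0), 1 bar per replicate, in the 3 EC types and mural cells, blue for eNOS+/+ and red for eNOS-/-, lighter from replicate 1 to 3. In each cell type the bars of eNOS-/- replicates 1 and 2 are below all eNOS+/+ bars, and in Tip ECs, Proliferative ECs and mural cells that of eNOS-/- replicate 3 is above them.

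The same arrangement was seen in single ECs at equal depth. Of ECs thinned to 500 UMIs, 89.1%, 87.3% and 90.8% had an Igfbp7 UMI for eNOS+/+, and 65.9%, 67.1% and 94.0% for eNOS-/-. The mean number of Igfbp7 UMIs per thinned EC was 3.45, 2.97 and 3.50 in eNOS+/+ and 1.31, 1.23 and 4.57 in eNOS-/-. Igfbp7 in eNOS-/- replicate 3 was 3.13- and 3.27-fold above the other eNOS-/- replicates. Of 3258 genes with at least 500 UMIs in ECs, 67 (2.06%) were over 2-fold above both of them in that library and 61 (1.87%) over 2-fold below. That library also had the fewest ECs and the lowest mitochondrial share, 1.42%. Its EC level of Nos3, given above, was the highest of the eNOS-/- replicates and lay within the eNOS+/+ range. The part of these in its Igfbp7 level was not tested.

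Low levels of Igfbp7 outside vessels varied by replicate. Neurons had 79.0, 193 and 712 CPM in eNOS+/+ and 170, 74.6 and 2678 CPM in eNOS-/-, and the last came from 16 UMIs in 10 cells of eNOS-/- replicate 3, the replicate with the highest EC level. Rods had 109 and 2000 CPM in eNOS+/+ and 132, 329 and 0 CPM in eNOS-/-. Neuroglia had 836, 431 and 299 CPM in eNOS+/+ and 139 and 217 CPM in eNOS-/-. These groups did not overlap (two-sided exact permutation p = 0.2, the smallest that 3 sums against 2 allow, and 0% of genes called in the neuroglia fit). How many of all genes have groups that do not overlap was not counted, here or in the other cell types. The part of free RNA from ECs in the levels of neurons, rods and neuroglia was not tested.

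Igfbp4, at chr11:99041244-99054392 on the plus strand, encodes a binding protein that is cleaved by the protease PAPP-A. It was highest in Optc+ cells (457 ± 184 CPM, n = 5), whose range lay above that of the next type, Tip ECs (231 ± 36.1 CPM, n = 6). Tip ECs did not separate from Proliferative ECs (225 ± 48.0 CPM) or Structural ECs (208 ± 55.7 CPM), and neuroglia (114 CPM) and mural cells (88.0 CPM) followed. Rods (22.6 CPM) and neurons (12.2 CPM) were lowest. At 500 UMIs per cell 16.2% of Optc+ cells (10.5 to 24.2%) had an Igfbp4 UMI, with 9.11% to 11.0% in the 3 EC types and 0.475% in rods.

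Igfbp5, at chr1:72857932-72874884 on the minus strand, is the neighbour of Igfbp2, with 5458 bp between them. The level was highest in neuroglia (499 ± 181 CPM, n = 5), followed by mural cells (266 ± 57.9 CPM, n = 5) and Optc+ cells (258 ± 265 CPM, n = 5). In neuroglia it was 334, 718 and 299 CPM in eNOS+/+ and 626 and 517 CPM in eNOS-/-, with overlap. The ranges of neuroglia and mural cells overlapped too, from 299 CPM upward in neuroglia and up to 343 CPM in mural cells. All ECs had 17.4 ± 8.17 CPM (n = 6). The share of cells with an Igfbp5 UMI at 500 UMIs was 21.4% in neuroglia (14.5 to 30.5%), 10.2% in mural cells, 6.31% in Optc+ cells and 0.649% in ECs.

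Igfbp2, at chr1:72824503-72852474 on the plus strand, was the member most concentrated in 1 cell type. The Optc+ cells, named for the extracellular matrix gene Optc (opticin), held 2.29% of all UMIs and 89.0% of the Igfbp2 UMIs (496 of 557). Their level was 3504, 3017 and 2661 CPM for eNOS+/+ and 1025 and 555 CPM for eNOS-/- 1 and 2, and eNOS-/- replicate 3 was not fitted. The 5 cells that carry the Optc+ label there also had 0 UMIs of Optc and of Col9a1, a collagen gene of the other Optc+ cells, and an Igfbp7 UMI in 100% of them, so their markers go against the label and their 0 Igfbp2 UMIs are not read as a level of Optc+ cells. The fitted groups did not overlap in CPM. The fit below called 2.06% of genes in these cells. Shares of genes called, here and in ECs, do not measure how many genes have groups that do not overlap, which was not counted. The lowest Optc+ level still lay above the highest in neuroglia, 478 CPM. Neuroglia had 190 ± 184 CPM (n = 5), mural cells 38.7 CPM and all ECs 3.81 CPM. The groups did not overlap in ECs either (0.0211% of genes called there), at 3.64, 10.7 and 5.25 CPM in eNOS+/+ and 0.432, 0.825 and 2.05 CPM in eNOS-/-, but these rest on 3, 7 and 8 UMIs against 1, 2 and 1 (two-sided exact permutation p = 0.1, the smallest that 3 against 3 allows). Proliferative ECs had 2, 1 and 3 UMIs in eNOS+/+ and 0, 2 and 0 in eNOS-/-, the eNOS+/+ levels being higher. Mural cells went the other way, with 0 UMIs in both eNOS+/+ sums and 3, 10 and 3 in eNOS-/-, and Igfbp2 passed the filter on low counts in none of these 3 fits. Of Optc+ cells thinned to 500 UMIs, 43.2% (34.4 to 52.5%) had an Igfbp2 UMI, against 4.08% of neuroglia, 0.0846% of ECs and 0 of 421 rods, which allows a share of up to 0.713% (3 cells of 421). The median depths were 916 UMIs in Optc+ cells, 541 in neuroglia, 682 in ECs and 361 in rods. By replicate, the thinned Optc+ cells with an Igfbp2 UMI were 6 of 10, 14 of 16 and 17 of 39 in eNOS+/+. In eNOS-/- replicates 1 and 2 they were 6 of 14 and 5 of 29. The mean number of Igfbp2 UMIs per thinned Optc+ cell was 1.3, 1.75 and 1.0 in eNOS+/+. It was 1.14 and 0.207 in those eNOS-/- replicates, so the means overlapped between the groups. The shares did not, the closest being 43.6% in eNOS+/+ replicate 3 and 42.9% in eNOS-/- replicate 1.

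**Figure D3:**
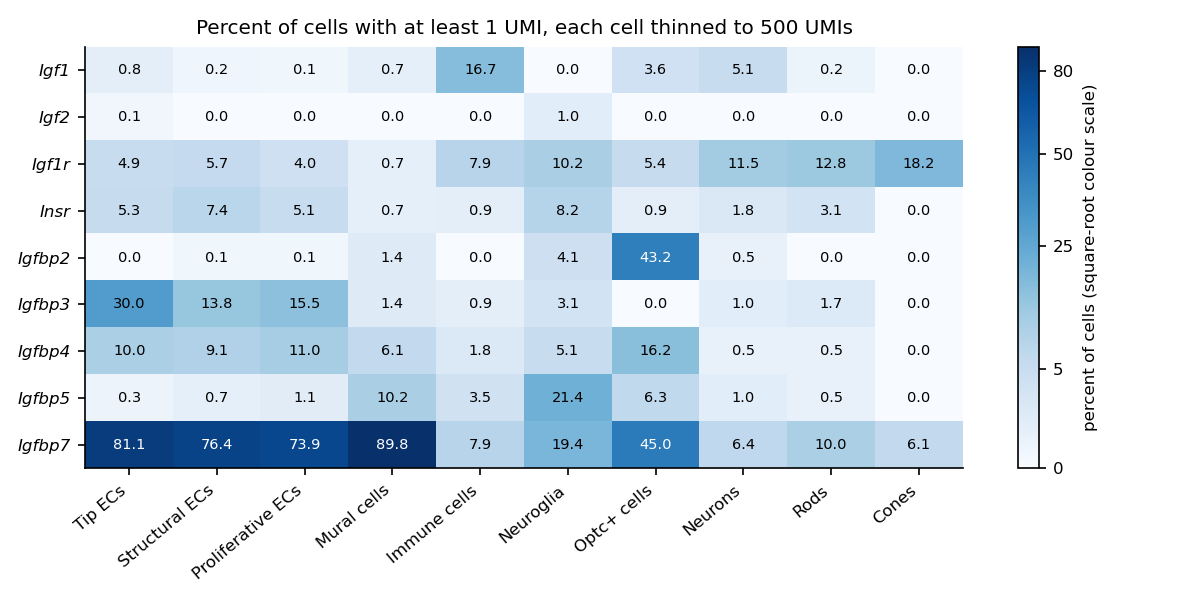
Percent of cells with at least 1 UMI of each member in the 10 cell types, each cell thinned to 500 UMIs and pooled over replicates, with the value printed in each field and a square-root colour scale. Igfbp7 reaches 89.8% of mural cells, Igfbp2 43.2% of Optc+ cells, Igfbp3 30.0% of Tip ECs and Igfbp5 21.4% of neuroglia.

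Within the 157 Optc+ cells, 111 had an Optc UMI, 86 an Igfbp2 UMI and 78 both. Of the cells with Igfbp2, 90.7% also had Optc, against 46.5% of the cells without Igfbp2. The cells were annotated from the same UMIs and deeper cells have more of both, so these shares are a description.

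Each member was then compared between genotypes with edgeR's quasi-likelihood test on the sums, adjusted by Benjamini-Hochberg over all genes tested in that cell type, with calls at an adjusted p below 0.05. In the sums of a cell type alone, fewer cells that express a gene and less RNA per cell cannot be told apart. Shares and mean UMIs of thinned cells are given by replicate above for Igfbp7 in ECs and Igfbp2 in Optc+ cells. In all ECs 0 of the 7 members tested were called, in a fit that called 2 of 9483 genes (0.0211%), with 548 genes at an unadjusted p below 0.05 and 3 called by DESeq2, none of them a member. The members' median log2 fold change was -0.19, against 0.01 over all genes. The largest in size was that of Igfbp7, followed by that of Igfbp4.

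The Igfbp7 log2 fold change of eNOS-/- against eNOS+/+ in all ECs was -0.56 (SE 0.38, edgeR adjusted p = 0.908), and -0.68 without eNOS+/+ replicate 2 (SE 0.42, edgeR adjusted p = 1.00). Without eNOS-/- replicate 3 it was -1.38 (SE 0.24, edgeR adjusted p = 0.0144), in a fit that called 78 of 10468 genes (0.745%), 74 of them lower. Leaving out that library, the one with the highest Igfbp7, also gave -1.18 in Tip ECs (SE 0.27, edgeR adjusted p = 0.0413, 0.353% of genes called), -1.50 in Structural ECs (SE 0.28, edgeR adjusted p = 0.0390, 0.317%) and -1.35 in Proliferative ECs (SE 0.24, edgeR adjusted p = 0.000173, 1.39%). In mural cells it gave -1.06 (SE 0.22, edgeR adjusted p = 0.0640, 0.171%). These values show how far 1 library sets the comparison and are not a test of genotype. By the two-sided exact permutation test of CPM in all ECs, p was 0.4, where the smallest p that 3 against 3 allows is 0.1.

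Igfbp4 was at 273, 229 and 244 CPM in all ECs of the eNOS+/+ replicates and 233, 159 and 166 CPM in those of eNOS-/-, with the highest eNOS-/- value just above the lowest eNOS+/+ value. Its log2 fold change was -0.42 (SE 0.21, unadjusted p = 0.0596, edgeR adjusted p = 0.870). In Tip ECs 0.0181% of genes were called, and how many genes have groups that do not overlap was not counted. For Igfbp4 the groups did not overlap there, with 267, 256 and 244 CPM against 233, 166 and 217 CPM. The fit there gave only -0.33 (SE 0.26, edgeR adjusted p = 0.985). The two-sided exact permutation p was 0.1, the smallest that 3 against 3 allows.

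The other members in all ECs had smaller differences. The log2 fold change was -0.23 for Igfbp3 (SE 0.24), 0.21 for Insr (SE 0.28), -0.19 for Igfbp5 (SE 0.44), 0.16 for Igf1r (SE 0.24) and -0.08 for Igf1 (SE 0.42), with edgeR adjusted p from 0.964 to 0.993. For Insr the level was 175, 109.7 and 112 CPM in eNOS+/+ and 221, 133 and 96.2 CPM in eNOS-/-. For Igf1r it was 84.9, 82.3 and 119 CPM in eNOS+/+ and 116, 126 and 77.8 CPM in eNOS-/-. The highest and the lowest value were both in eNOS-/- for each receptor, so the groups overlapped.

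**Figure D4:**
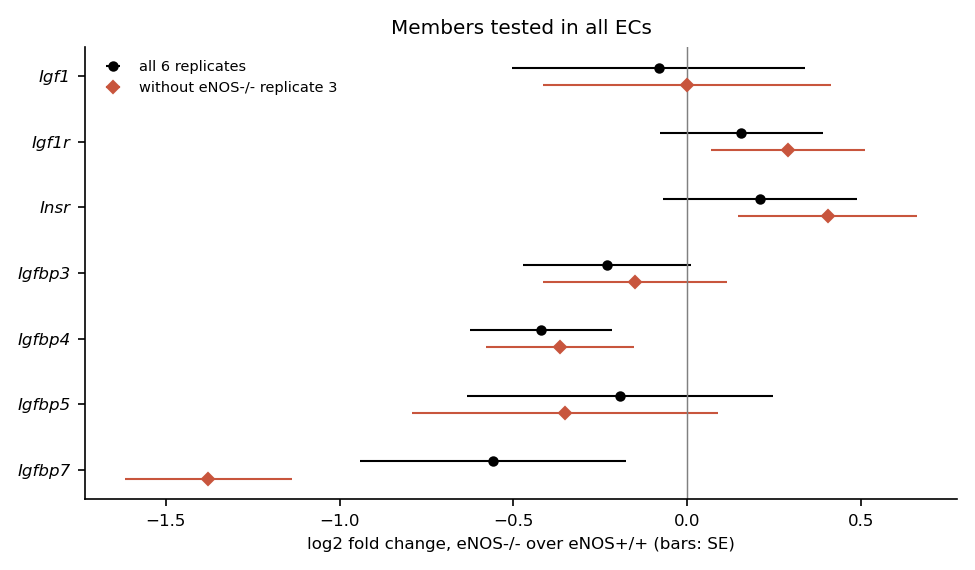
Log2 fold change of eNOS-/- over eNOS+/+ in all ECs for the 7 members tested, with bars of 1 SE, from all 6 replicates (black circles) and without eNOS-/- replicate 3 (red diamonds). Only Igfbp7 moves past the threshold when that library is left out, from -0.56 to -1.38.

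No member was called in the separate EC types either, where the fits called 1 of 5510 genes in Tip ECs (0.0181%), 2 of 7577 in Structural ECs (0.0264%) and 1 of 4607 in Proliferative ECs (0.0217%). At an unadjusted p below 0.05 these fits had 271, 421 and 291 genes, and DESeq2 called 2, 3 and 1 genes and no member. The genotype effect was also compared between the 3 EC types, with the replicate as a block. None of 7019 genes was called in that comparison (0%, 240 at an unadjusted p below 0.05 and again 0 under RLE scaling, DESeq2 not being run). For Igfbp7 the log2 fold change was 0.33 higher in Tip and 0.14 higher in Proliferative than in Structural ECs. Both differences were tested together (unadjusted p = 0.0261, adjusted p = 1.00 by edgeR), and neither was tested alone.

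In mural cells 0 of 1973 genes were called (0%, 119 at an unadjusted p below 0.05), in immune cells 0 of 464 (0%, 22), in neuroglia 0 of 472 (0%, 28), in neurons 0 of 982 (0%, 41) and in rods 0 of 3121 (0%, 38), and DESeq2 also called 0 in each. Igf1 in immune cells had a log2 fold change of -0.36 (SE 0.56, edgeR adjusted p = 0.943). Igfbp5 had 0.64 in neuroglia (SE 0.54, edgeR adjusted p = 0.877) and 0.50 in mural cells (SE 0.51, edgeR adjusted p = 0.909). Igfbp7 had -1.42 in neuroglia (SE 0.68, edgeR adjusted p = 0.777) and -0.09 in mural cells (SE 0.39, edgeR adjusted p = 0.975). In rods it had -1.92 (SE 0.60, unadjusted p = 0.00133), and this rested on eNOS+/+ replicate 3, since the value was 1.06 without it (edgeR adjusted p = 0.998) and -2.87 without eNOS+/+ replicate 1 (edgeR adjusted p = 0.0346, 0.0318% of genes called). Cones could not be fitted, and in neurons no member passed the filter on low counts.

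Igfbp2 in Optc+ cells was the 1 member called, lower in eNOS-/- by a log2 fold change of -1.90 (SE 0.45, unadjusted p = 2.2e-05, edgeR adjusted p = 0.00203). The fit called 23 of 1118 genes (2.06%), of which 12 were higher and 11 lower in eNOS-/-, and 1 of the 6 members tested was among them. DESeq2, which called 14 of 1118 genes (1.25%), gave Igfbp2 an adjusted p of 0.00101. The two-sided exact permutation test of CPM gave p = 0.2, the smallest that 3 replicates against 2 allow. Without eNOS+/+ replicate 2 the edgeR adjusted p was 0.00860 (log2 fold change -1.91). The call was lost without eNOS-/- replicate 1 (edgeR adjusted p = 0.0615) and without eNOS-/- replicate 2 (edgeR adjusted p = 0.508), each of which leaves 1 eNOS-/- sum that is assumed to vary like the eNOS+/+ sums. It was also lost with no filter on low counts (edgeR adjusted p = 0.375) and with the replicate number as a block (edgeR adjusted p = 0.334). The replicate numbers gave no evidence of pairing, which does not exclude it.

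The defining gene of the type was also lower in eNOS-/-, while pigment cell genes were higher. Optc was at 7602, 4016 and 6500 CPM in eNOS+/+ and 1926 and 2116 CPM in eNOS-/- (log2 fold change -1.50, SE 0.39, edgeR adjusted p = 0.00762). Per UMI of Optc there were 0.461, 0.751 and 0.409 UMIs of Igfbp2 in eNOS+/+ and 0.532 and 0.262 in eNOS-/-, so this ratio overlapped between the groups. Col9a1 was at 4811, 5631 and 6557 CPM in eNOS+/+ and 6336 and 5527 CPM in eNOS-/-, also overlapping.

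Of 5 melanin and melanosome genes (Pmel, Mlana, Dct, Tyrp1 and Gpnmb), chosen after the data were seen, all 5 were called higher in eNOS-/-, with log2 fold changes from 3.95 to 8.61. Their summed level was 59.4, 85.0 and 169.9 CPM in eNOS+/+ and 9287 and 21779 CPM in eNOS-/-. The cells with such a UMI were 1, 3 and 11 of 15, 24 and 49 in eNOS+/+, and 6 and 9 of 24 and 40 in eNOS-/-. The difference in summed level was thus carried by few cells.

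With those cells left out, Igfbp2 was at 3636, 3247 and 2183 CPM in eNOS+/+ and 1395 and 989 CPM in eNOS-/-, and Optc at 7802, 4009 and 6034 CPM against 2579 and 3151 CPM. The groups still did not overlap for either gene. The log2 fold change of Igfbp2 was then -1.33 (SE 0.43, edgeR adjusted p = 0.203), in a fit that called 3 of 580 genes (0.517%). A change within cells and a different mixture of cells under this annotation cannot be told apart.

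**Figure D5:**
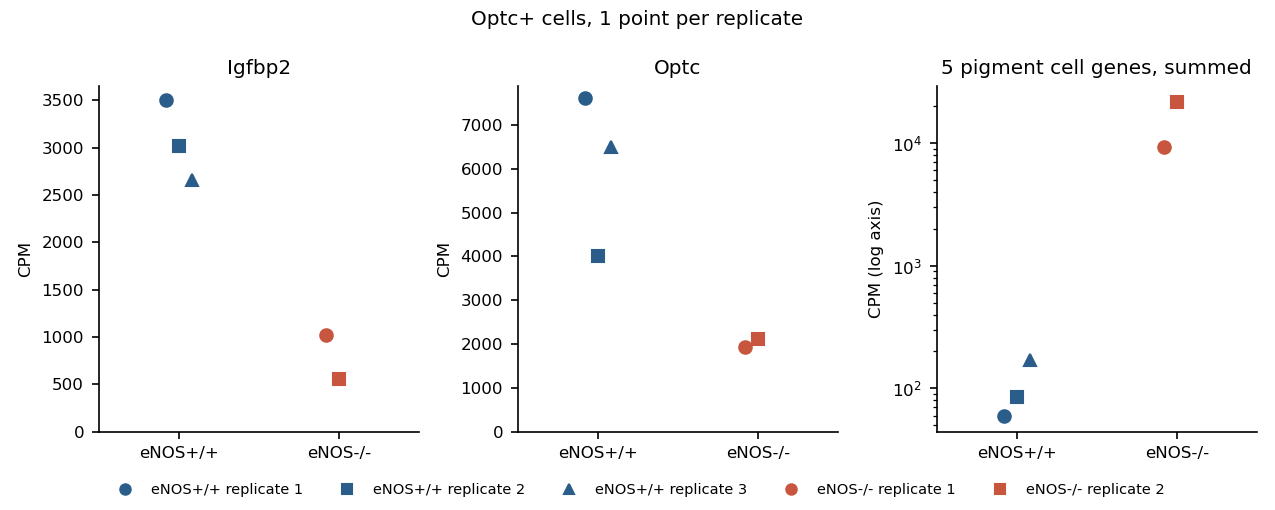
Levels in Optc+ cells in CPM, 1 point per replicate with at least 10 such cells, for Igfbp2 and Optc (linear axes from 0) and for the 5 pigment cell genes summed (log axis). Igfbp2 and Optc are lower in both eNOS-/- replicates than in every eNOS+/+ replicate, and the pigment cell genes are higher.

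The other 5 members tested in Optc+ cells had log2 fold changes of 0.63 for Igf1 (SE 0.71), 0.53 for Igfbp5 (SE 0.67), 0.23 for Igf1r (SE 0.70), 0.20 for Igfbp4 (SE 0.48) and -0.40 for Igfbp7 (SE 0.44), with edgeR adjusted p from 0.846 to 0.949.

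Beyond the members, 34 of 38 listed genes of the IGF pathway were in the table, and none of those tested was called in any of the 10 fits. Few were tested outside ECs, with 2 in Optc+ cells, 1 in neurons and 0 in immune cells and neuroglia. At an unadjusted p below 0.05 by edgeR there was 1 in Structural ECs and 1 in Optc+ cells, and 0 in the other fits. Igfbp1, Igfbp6, Igfbpl1 and Igfals were not analysed here. In all ECs 26 were tested, of which 12 had a positive log2 fold change and 0 an unadjusted p below 0.05, with a median of -0.03 against 0.01 over all genes. In Tip ECs 1 of 17 tested was positive, with a median of -0.36 against -0.01 over all genes, and in Structural ECs 12 of 20, with a median of 0.11 against 0.02. The Tip EC median was nearer 0 with 1 library left out, at -0.14 without eNOS-/- replicate 2, -0.23 without eNOS-/- replicate 3, -0.18 without eNOS+/+ replicate 1 (6 of 18 positive) and -0.20 without eNOS+/+ replicate 3. It moved little without eNOS-/- replicate 1 (-0.33, 2 of 13 positive) and without eNOS+/+ replicate 2 (-0.34, 4 of 18 positive). The Structural EC median was between -0.02 (without eNOS-/- replicate 3) and 0.10 with 1 library left out. Those with the highest EC levels included Cd93, a receptor for Igfbp7 on ECs (1628 ± 300 CPM, n = 6), the kinase gene Gsk3b (219 ± 30.9 CPM), Igf2bp2, which encodes an RNA-binding protein (150 ± 29.0 CPM), and the receptor adaptor Grb10 (137 ± 27.0 CPM). The log2 fold changes of these 4 in all ECs lay between -0.16 (Grb10) and 0.14 (Gsk3b).

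Genes whose levels were most like those of a member over the 50 sums were found among 7445 genes with at least 200 UMIs, by Pearson's r of log2(CPM + 50). The sums share libraries and cell types, so r is a description and has no p. Igfbp3 was most like Vwf (r = 0.93), the von Willebrand factor gene, and Rassf9 (0.92). Igfbp7 was most like Serpinh1 (0.92), a collagen chaperone, and Gng11 (0.89). Igfbp2 was most like Optc (0.91) and Fbn2 (0.91), a microfibril gene.

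For the other members the likest genes were Ctsd (r = 0.76) and Lpl (0.75) for Igf1, Son (0.82) and Fam169a (0.77) for Igf1r, Tmem44 (0.83) and Slc44a1 (0.77) for Insr, Rhoj (0.82) and Itm2a (0.82) for Igfbp4, and S1pr3 (0.86) and Cryab (0.82) for Igfbp5. Among the members themselves the highest r was that of Igfbp3 with Igfbp7 (0.69), ahead of Igfbp4 with Igfbp7 (0.61), and the lowest was that of Igf1r with Igfbp7 (-0.49). The receptors had r = 0.25 with each other. With Igfbp7, Insr had r = 0.33, and with Igfbp3 Insr had 0.58 and Igf1r -0.19.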

How the data were processed

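The authors counted UMIs with kb-python on GRCm38, filtered on gene number and mitochondrial share, took out contaminant clusters (red blood cells and pigmented epithelium) and named cell types after integration with Seurat 3. They deposited counts, the UMIs per gene and cell without normalization, with a table of each cell's replicate, genotype and cell type, of which 11 columns were not used. The annotation used for counting is not given in the sources used here. All cells are annotated as singlets, and more are annotated as ECs than the design text states.

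UMIs were summed per cell type and replicate, and sums of at least 10 cells were kept. edgeR 4.0.16 (filterByExpr, TMM, quasi-likelihood test, no covariate) compared genotypes where each kept 2 replicates. Adjusted p below 0.05 was called. DESeq2 1.42.0 was the other tool, with R 4.3.3 for the models and Python 3.11.15 for the rest. The study's methods name a negative binomial model for the EC types and do not state its replicates, and the sums were tested here. Replicates are pools, so p-values measure the spread between pools. Thinning to 500 UMIs left out 1173 eNOS+/+ and 2910 eNOS-/- cells. The fits were tested on simulated data with 200 changed genes. Alternatives were RLE scaling, no filter, a replicate block, each replicate left out, cells of at least 500 UMIs, 1 cell per barcode family (same first 11 bases), exact permutation tests, 300 UMIs per cell and a pseudocount of 10. Leaving out cells with pigment cell genes was added after the data were seen.

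The genes named are the 9 members, Nos3, the 5 pathway genes highest in ECs with any called, and the 2 genes most like each member with at least 200 UMIs. Of these, 1 gene is not reported here. Optc, Col9a1 and the pigment cell genes were named after their values were seen. Members and lists were chosen with earlier results of these data known. Gene coordinates are those of each symbol in the GENCODE annotation of GRCm38, and promoters are from RefSeq.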

Additional observations from a re-analysis of the deposited data

How the results depend on the processing

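The mean levels by cell type moved by less than 1 SD in all 90 alternatives. The cell type with the highest mean was the same in 78 of 90, the 12 others being of Insr and Igfbp7. For the genotype log2 fold changes of Nos3 and the members tested, 259 of 272 values under settings other than leaving out a replicate kept their direction and their side of the threshold. With 1 replicate left out, 19 values turned direction. The cause was not tested for any value below. Low counts limit Igf2 and most members outside their main cell types, and cones had 1 usable sum.

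Genes called with no filter on low counts numbered 84 in all ECs, 74 in Structural ECs, 8 in Tip ECs, 10 in Proliferative ECs, 2 in mural cells, 8 in immune cells, 3 in neuroglia, 1 in neurons and 1 in rods. From cells of at least 500 UMIs they were 1 in all ECs, 2 in Tip ECs, 0 in Structural ECs, 4 in neuroglia and 2 in neurons. With 1 cell per barcode family they were 1, 2, 0, 8, 10 and 5 in all ECs, Tip ECs, Structural ECs, Proliferative ECs, Optc+ cells and neurons. DESeq2 called 2 in Tip ECs and 14 in Optc+ cells, RLE scaling 1 in rods, and leaving out cells with pigment cell genes 3 in Optc+ cells. Leaving out 1 replicate gave 0 to 78 in all ECs, 0 to 28 in Structural ECs, 0 to 25 in Tip ECs, 0 to 73 in Proliferative ECs, 0 to 2 in mural cells, 0 to 1 in immune cells, 9 to 35 in Optc+ cells, 0 to 3 in neurons and 0 to 2 in rods. Members called then ran from 0 to 1 in all ECs, in each EC type, in Optc+ cells and in rods.

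The replicate numbers gave no evidence of pairing, with correlations of same-numbered deviations of 0.13, -0.07 and 0.11 in all ECs, and not every replicate correlated best with its own number. With a replicate block 10 genes were called in Structural ECs, 6 in Proliferative ECs, 1 in mural cells, 1 in neuroglia and 2 in Optc+ cells. The Igfbp2 value in Optc+ cells was -2.04 with the replicate block (edgeR adjusted p = 0.334), and its adjusted p was 0.375 with no filter. Members called in Optc+ cells were 0 with the block, with no filter and without the pigment cells.

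Directions turned for Insr in Tip ECs (0.0200) and Igf1r in Proliferative ECs (-0.0466) with 1 cell per family, Igfbp7 in mural cells with no filter (0.27), Igfbp4 in mural cells by DESeq2 (0.00043), with no filter (0.32), with the replicate block (0.60) and as a CPM difference (2.15), and Igfbp5 in Optc+ cells with the replicate block (-0.23) and as a CPM difference (-35.5). Leaving out a replicate gave ranges across 0 for Igfbp5 (-0.46 to 0.43) and Insr (-0.16 to 0.47) in all ECs, Igf1r (-0.29 to 0.30) and Igfbp3 (-0.37 to 0.0578) in Tip ECs, Insr in Structural ECs (-0.11 to 0.89), Igfbp7 (-1.06 to 0.17) and Igfbp4 (-0.82 to 5.67) in mural cells, Igf1 in immune cells (-0.82 to 0.81), Igfbp5 (-1.60 to 1.31), Igfbp7 (-1.14 to 0.22), Igf1r (-0.11 to 0.65) and Igfbp4 (-0.42 to 0.79) in Optc+ cells, and Igfbp7 (-2.87 to 1.06) and Insr (-2.71 to 0.79) in rods.

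Shares of cells at 300 UMIs per cell were 9.74% for Igf1r in rods, 30.4% for Igfbp2 in Optc+ cells, 23.2% for Igfbp3 in Tip ECs, 12.7% for Igfbp5 in neuroglia and 78.1% for Igfbp7 in mural cells. Unthinned they were 54.8% for Igfbp2 and 26.1% for Igfbp4 in Optc+ cells and 45.8% for Igfbp3 in Tip ECs. With a pseudocount of 10, r was 0.699 for Ctsd, 0.657 for Lpl, 0.788 for Son, 0.699 for Fam169a, 0.831 for Slc44a1, 0.817 for Optc, 0.845 for Fbn2, 0.891 for Vwf, 0.889 for Rassf9, 0.805 for Rhoj, 0.867 for Itm2a, 0.880 for S1pr3, 0.762 for Cryab and 0.826 for Gng11.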
